A study of Homo sapiens with 8 samples.

Results

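The genes described here are 10 members of the NF-kB system: the subunit genes NFKB1, NFKB2 and RELB, the feedback inhibitors NFKBIA and TNFAIP3, and the target genes BIRC3, ICAM1, SOD2, LCN2 and C3. They were chosen by name, as genes whose symbol is the only one given to a probe set in the platform annotation. By that rule 9 of the 10 had a probe set, 15 in all, and all 9 were tested, out of 14180 genes tested and 19775 genes with a probe set of 1 symbol. BIRC3, which encodes an inhibitor of apoptosis that also acts as a ubiquitin ligase, enters only through its promoter sequence, and its transcript level was not analysed here. Where a gene had several probe sets, the one with the highest mean over the 8 arrays stands for it.

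Transcripts were measured on 8 Affymetrix arrays of sublines of KYSE180 and KYSE30, both established human esophageal squamous cell carcinoma lines. Cells of each line had gone through 4 rounds of selection on transwell inserts, where cells can migrate across a porous membrane. The groups were 180D and 30D, the sublines that crossed the membrane and are the more motile ones per the labels, and 180U and 30U, the sublines that did not cross. Each group held 2 arrays, and RNA was taken 2 passages after harvest. The labels name no added agent in any group. Each D subline shared 1 of 4 independent parental populations with a U subline. The comparisons ask which transcripts change with passage through the membrane in either line, whether both lines change alike, and how the lines themselves differ.

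NF-kB is a family of transcription factors that act as dimers of REL-domain proteins and are held in the cytoplasm by inhibitors of the IkB family. Signals from cytokine and pattern-recognition receptors activate the IKK kinase complex, which marks IkB proteins for degradation. The released dimers enter the nucleus and switch on genes of inflammation, survival and adhesion, among them genes for their own inhibitors. In squamous epithelia the system is best known for chemokine and cytokine production and for the control of cell death. Dimer activity is set mainly by protein degradation and localisation, which arrays of RNA do not measure.

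Values are RMA log2 expression values as deposited by the authors, and a change is the difference of 2 group means on that log2 scale, so that a change of 1 is a doubling. Each change is given with its SE from limma, and an adjusted p (limma, Benjamini-Hochberg over all 14180 genes, two-sided) under 0.05 counts as passing. The array medians lay between 5.02 and 5.04. The array of 180D replicate 1 stood apart: its ACTB signal was 1.92 higher at the 3' than at the 5' end on the log2 scale, where the remaining 7 arrays gave 1.06 to 1.42, and its control for ribosomal RNA read 11.47, where they gave 12.35 to 12.54. The changes of the members in KYSE180, and the calls of other genes named there, are therefore also given without it. Of 11 squamous epithelial markers, 9 had a probe set and all 9 passed the filter on dim probe sets, a mean log2 value of 4.46. KRT14, a keratin of basal squamous cells, averaged 13.38 in 180D and 13.62 in 180U, but 4.13 in 30D and 3.54 in 30U, where it lay below the filter. Of 10 immune markers, 8 had a probe set and 3 of them passed the filter: CD3E, CSF1R and ITGAM. The highest array value on that list was 5.92, for CSF1R. The immune marker PTPRC lay below the filter and stayed between 2.69 and 3.10 on all arrays. In these bulk cultures fewer cells of a type and less RNA per cell cannot be told apart.

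The RefSeq promoter table (GRCh38.p14) held 14 windows of 8 members: all but RELB and C3. The 250 bases before each start were searched on both strands for the kappa-B consensus decamer, the DNA element that NF-kB dimers bind. It was written as GGGRNWYYCC, where R is A or G, N any base, W is A or T and Y is C or T. The decamer was found in 7 of these 14 windows and in 6 of the 8 genes, and among all windows of the table in 1828 of 35116, or 5.21%. The members were named as subunits and targets of NF-kB, so their share is not independent of how they were chosen. Neither ICAM1 nor any of the 4 windows of SOD2 held the exact decamer in these bases. The ICAM1 window holds TGGAAATTCC, which departs from it in the first letter only. Sites that depart from the decamer were not counted, so its absence does not show that a window lacks a site for NF-kB. Shown are windows that hold the decamer, for the members that passed in a comparison between the lines: the change of NFKBIA and LCN2 differed between the lines, and NFKB1 and TNFAIP3 were higher in KYSE180. SOD2, which was also higher in KYSE180, has no such window, and the second window of NFKB1, at chr4:102501684-102501933, held no decamer. Each is written 5' to 3' on the strand of the gene and ends at the base before the start, and capitals mark the decamer on either strand. They lie at chr14:35404750-35404999 on the minus strand for NFKBIA and, on the plus strand, at chr9:128149203-128149452 for LCN2, chr4:102501109-102501358 for NFKB1 and chr6:137867009-137867258 for TNFAIP3.
NFKBIA: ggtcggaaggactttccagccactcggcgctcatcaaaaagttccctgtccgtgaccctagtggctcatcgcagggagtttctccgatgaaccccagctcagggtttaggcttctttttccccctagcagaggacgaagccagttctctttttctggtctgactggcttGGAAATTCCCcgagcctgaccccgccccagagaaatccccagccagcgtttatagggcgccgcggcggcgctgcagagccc
LCN2: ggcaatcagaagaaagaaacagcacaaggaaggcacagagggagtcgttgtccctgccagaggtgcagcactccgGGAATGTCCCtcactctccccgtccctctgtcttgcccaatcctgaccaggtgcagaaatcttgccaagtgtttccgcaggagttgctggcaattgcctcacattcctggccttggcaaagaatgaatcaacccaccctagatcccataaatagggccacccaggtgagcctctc
NFKB1: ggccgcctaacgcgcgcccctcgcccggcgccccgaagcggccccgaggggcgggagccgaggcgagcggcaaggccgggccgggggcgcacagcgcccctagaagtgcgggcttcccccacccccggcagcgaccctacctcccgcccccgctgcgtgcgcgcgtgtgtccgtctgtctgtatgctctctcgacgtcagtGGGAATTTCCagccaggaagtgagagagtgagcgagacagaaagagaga
TNFAIP3: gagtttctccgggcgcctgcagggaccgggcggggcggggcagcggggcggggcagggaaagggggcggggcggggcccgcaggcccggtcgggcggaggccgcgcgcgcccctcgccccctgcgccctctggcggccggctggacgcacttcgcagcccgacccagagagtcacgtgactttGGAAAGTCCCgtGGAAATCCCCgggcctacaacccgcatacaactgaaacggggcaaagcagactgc
The decamer of NFKBIA lay 81 to 72 bases before the start, that of LCN2 175 to 166 bases and that of NFKB1 49 to 40 bases, and TNFAIP3 held 2 of them a short distance apart. A match of letters is a description of the sequence and does not show that a factor binds there.

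Transcripts of the 3 subunit genes were nearly level between D and U or too variable to pass. NFKB1 encodes p105, the precursor of the p50 subunit. It read 8.63 and 8.54 in 180D and 8.41 and 8.55 in 180U (replicates 1 and 2, log2, here and below). In KYSE30 it read 7.98 and 7.93 in 30D and 7.95 and 7.88 in 30U. All 4 KYSE180 arrays lay above all 4 KYSE30 arrays, while the D and U arrays overlapped within both lines. The change was 0.11 ± 0.07 in KYSE180 (adjusted p = 0.434) and 0.04 ± 0.07 in KYSE30 (adjusted p = 0.762).

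NFKB2 encodes p100, which is cut to the p52 subunit in the non-canonical pathway. Its values were 5.89 and 5.95 in 180D, 5.94 and 5.89 in 180U, 5.93 and 5.78 in 30D, and 5.89 and 5.90 in 30U. The 4 groups overlapped, and it did not pass in any comparison. Its second probe set past the filter gave changes of -0.16 ± 0.08 in KYSE180 and 0.02 ± 0.08 in KYSE30, so the sign depended on the probe set, and neither passed.

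RELB, the partner of p52, read 6.27 and 5.91 in 180D and 5.27 and 5.85 in 180U. In KYSE30 it read 6.28 and 6.35 in 30D and 5.91 and 5.97 in 30U. Both D arrays of a line lay above both U arrays in KYSE180 and in KYSE30, but the 180U arrays differed from each other by more than the 30D arrays differed from the 30U arrays. The change was 0.54 ± 0.19 in KYSE180 (adjusted p = 0.181) and 0.37 ± 0.19 in KYSE30 (adjusted p = 0.229), so RELB did not pass. Within the 4 parental populations D exceeded U by 0.65 and 0.43 in KYSE180 and by 0.37 and 0.37 in KYSE30. With the parental population as a block the changes were the same and the SE smaller, at 0.54 ± 0.07 in KYSE180 (adjusted p = 0.0415) and 0.37 ± 0.07 in KYSE30 (adjusted p = 0.0368). RELB thus passed in both lines under that block. Over all genes, however, paired arrays deviated from their group means with correlations of only 0.0203 in KYSE180 and -0.0228 in KYSE30. Without 180D replicate 1 the unblocked change in KYSE180 was 0.36 ± 0.22 (adjusted p = 0.495). In KYSE30 it also passed when the 4 arrays of that line were fitted alone (adjusted p = 0.0157).

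**Figure D1:**
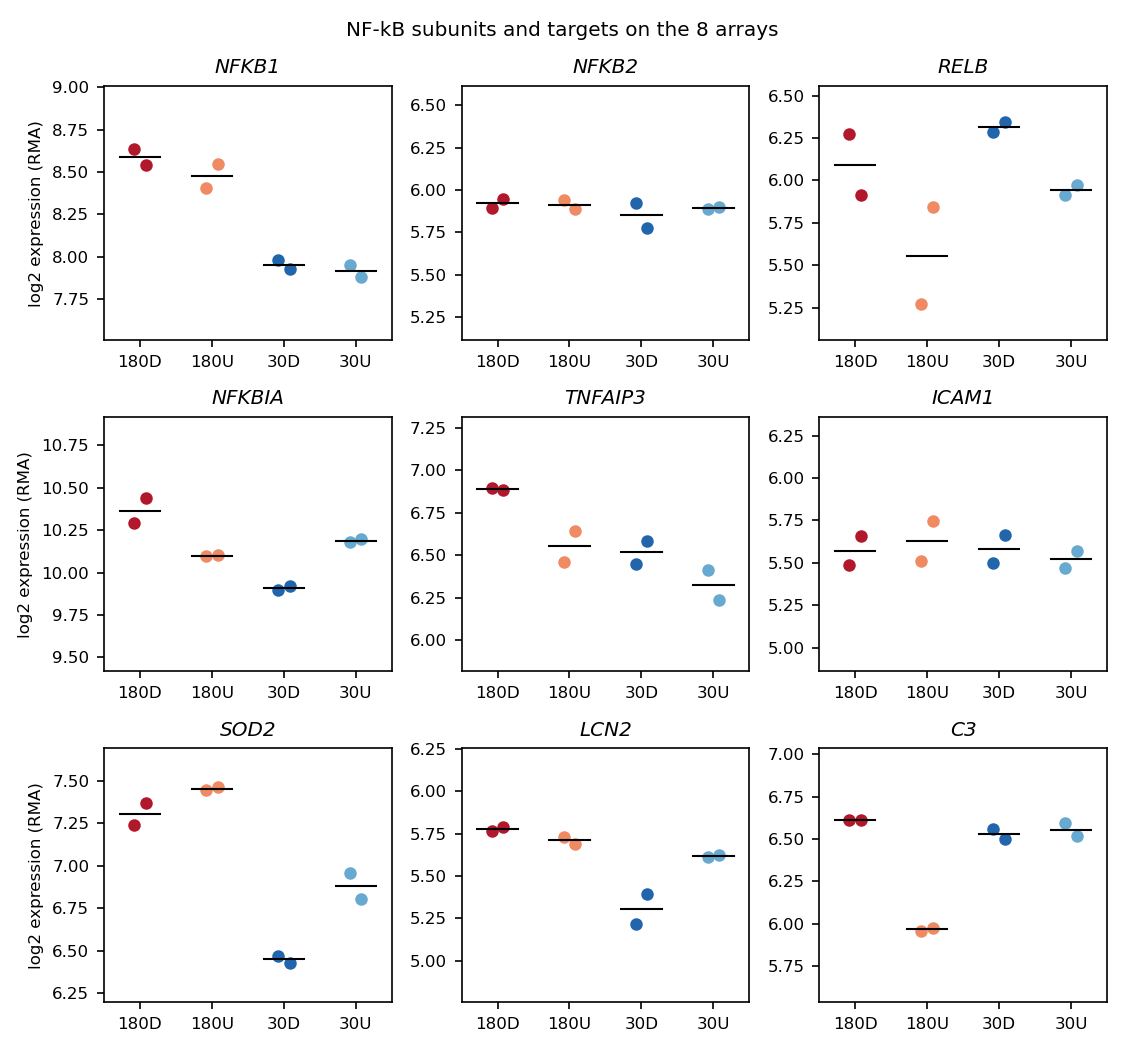
Log2 expression (vertical axis, RMA, a window of the same height in every panel) of the 9 measured genes in the groups 180D, 180U, 30D and 30U. Points are single arrays, 2 a group, and bars are group means: both C3 arrays of 180U sit below 6, while the other 6 arrays lie between 6.50 and 6.61.

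The inhibitor NFKBIA was lower in 30D than in 30U, and the change had the opposite sign in KYSE180, where the difference of the changes passed. It encodes IkB-alpha, which binds NF-kB dimers in the cytoplasm and whose own gene is a rapid NF-kB target. NFKBIA read 10.29 and 10.44 in 180D and 10.10 and 10.10 in 180U. In KYSE30 it was 9.90 and 9.92 in 30D and 10.18 and 10.19 in 30U. D and U did not overlap in either line: D was the higher in KYSE180 and the lower in KYSE30. In 30D NFKBIA fell by 0.28 ± 0.06 (adjusted p = 0.0223), and in 180D the change was 0.26 ± 0.06 (adjusted p = 0.0685), which did not pass. A second probe set of NFKBIA, whose mean of 4.10 lay below the filter, gave 0.15 ± 0.07 in KYSE180 and 0.07 ± 0.07 in KYSE30. Its difference between the lines was 0.09 ± 0.10, and none of these passed. With the bright probe set the change in KYSE180 exceeded that in KYSE30 by 0.54 ± 0.09 (adjusted p = 0.00974).

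That difference between the lines passed in all 8 fits that left out 1 array, with adjusted p up to 0.0470, and with the parental populations as a block (adjusted p = 0.0351). Without 180D replicate 1 it was 0.62 ± 0.07 (adjusted p = 0.00863). The fall in 30D was less secure: leaving out 30U replicate 1 gave an adjusted p of 0.103, 30U replicate 2 one of 0.121, 30D replicate 1 one of 0.123 and 30D replicate 2 one of 0.101, and the block gave 0.0525, although in these fits the change of NFKBIA stayed between -0.29 and -0.27. Among all genes the number passing in KYSE30 also fell, to between 834 and 902, when 1 of these arrays was left out.

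TNFAIP3 encodes A20, an enzyme that edits ubiquitin chains and shuts off signalling to IKK. It read 6.90 and 6.88 in 180D and 6.46 and 6.64 in 180U. In KYSE30 the values were 6.45 and 6.59 in 30D and 6.41 and 6.23 in 30U. D lay above U without overlap in both lines, and the 2 arrays of 180D were the highest of all. The changes of 0.34 ± 0.09 in KYSE180 (adjusted p = 0.102) and 0.19 ± 0.09 in KYSE30 (adjusted p = 0.199) did not pass. The second TNFAIP3 probe set gave 0.26 ± 0.10 in KYSE180 and 0.17 ± 0.10 in KYSE30, with the same signs and neither passing.

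**Figure D2:**
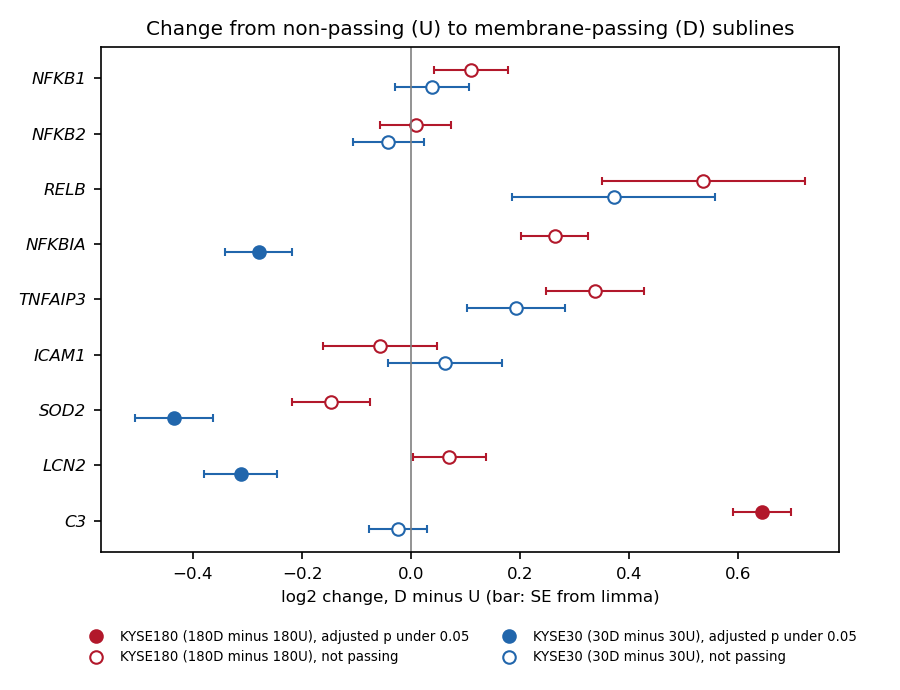
Change from U to D (horizontal axis, log2, with SE bars from limma) of the 9 genes in KYSE180 (red) and KYSE30 (blue), where filled points pass at an adjusted p under 0.05. NFKBIA lies at 0.26 in KYSE180 and at -0.28 in KYSE30, and C3 at 0.64 in KYSE180 and -0.02 in KYSE30.

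Among the targets, C3 changed in KYSE180 and SOD2 and LCN2 changed in KYSE30. C3 encodes the central protein of the complement cascade. It read 6.61 and 6.61 in 180D and 5.96 and 5.98 in 180U, and in KYSE30 6.56 and 6.50 in 30D and 6.59 and 6.52 in 30U. Both 180U arrays were low and the other 6 arrays lay together. C3 rose in 180D by 0.64 ± 0.05, or 1.56-fold (adjusted p = 0.00144), and its change in KYSE30 was -0.02 ± 0.05 (adjusted p = 0.813). The difference between these changes was 0.67 ± 0.08 (adjusted p = 0.00277).

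Both C3 results passed in all 8 fits that left out 1 array and with the block, where the adjusted p was 0.0141 for the rise and 0.0168 for the difference. Without 180D replicate 1 C3 rose by 0.65 ± 0.06 (adjusted p = 0.0138). D exceeded U by 0.65 in 1 parental population of KYSE180 and by 0.63 in the other. Of 7 fibroblast markers, 3 lay above the filter and 1 of them rose in 180D as well: COL1A1 averaged 7.84 in 180D and 7.25 in 180U, and 6.63 in 30D and 7.02 in 30U. The other 4, COL1A2, COL3A1, LUM and FAP, lay below the filter on every array, and the list median was 3.81 in 180D, 3.69 in 180U, 3.74 in 30D and 3.67 in 30U. The part of these genes in the change of C3 was not tested.

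SOD2, the manganese superoxide dismutase of mitochondria, read 7.24 and 7.37 in 180D, 7.44 and 7.46 in 180U, 6.47 and 6.43 in 30D, and 6.96 and 6.81 in 30U. D lay below U without overlap in both lines, and every KYSE180 array lay above every KYSE30 array. SOD2 fell in 30D by 0.44 ± 0.07 (adjusted p = 0.00812), and its change in KYSE180 was -0.15 ± 0.07 (adjusted p = 0.322). The difference between the lines did not pass (0.29 ± 0.10, adjusted p = 0.114), so the fall is not shown to be particular to KYSE30. The call in 30D was lost without 30U replicate 1 (-0.36 ± 0.08, adjusted p = 0.0562) and without 30D replicate 2 (-0.41 ± 0.10, adjusted p = 0.0585), and it held with the block (adjusted p = 0.0228). Another 4 probe sets that carry the symbol of SOD2 together with that of SOD2-OT1 were not used.

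LCN2, a secreted lipocalin that binds bacterial siderophores, read 5.77 and 5.79 in 180D and 5.73 and 5.69 in 180U. In KYSE30 it read 5.22 and 5.39 in 30D and 5.61 and 5.63 in 30U. The 2 arrays of 30D were the lowest, and the 6 others lay between 5.61 and 5.79. LCN2 fell in 30D by 0.31 ± 0.07 (adjusted p = 0.0205), and its change in KYSE180 was 0.07 ± 0.07 (adjusted p = 0.63). The difference between the lines was 0.38 ± 0.09 (adjusted p = 0.0424).

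The fall of LCN2 did not pass without 30U replicate 1 (adjusted p = 0.0962), without 30U replicate 2 (0.111) or without 30D replicate 1 (0.118), but passed with the block (0.0421). Its difference between the lines passed in only 1 of the 8 fits that left out an array, the one without 30D replicate 2. In the other 7 the adjusted p lay between 0.0757 and 0.132 (0.0800 without 180D replicate 1), and it was 0.0740 with the block. It was also lost with no filter (0.0810), with the most variable probe set of each gene (0.0592), with an intensity trend (0.0869) and with centred arrays (0.0597), so it passed in 3 of 15 alternatives.

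ICAM1, an adhesion molecule that leukocytes bind, read 5.49 and 5.66 in 180D, 5.51 and 5.75 in 180U, 5.50 and 5.67 in 30D, and 5.47 and 5.57 in 30U. The groups overlapped throughout and it did not pass in any comparison, with changes of -0.06 ± 0.10 in KYSE180 and 0.06 ± 0.10 in KYSE30. The second ICAM1 probe set past the filter gave the opposite signs, 0.05 ± 0.13 in KYSE180 and -0.33 ± 0.13 in KYSE30 (adjusted p over all probe sets = 0.202), and did not pass either.

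Counted over the 9 genes, 1 passed in KYSE180, higher in 180D, where 3.75% of all genes passed, 2.55% higher and 1.21% lower. The median change of the 9 genes was 0.11, against 0.019 for all genes. When the arrays were set to a common median, the all-gene calls in KYSE180 were 269 higher and 236 lower, against 361 higher and 171 lower as deposited, and C3 remained the single member called. In KYSE30 3 of the 9 passed, all lower in 30D, against 16.5% of all genes (8.42% higher and 8.12% lower), and the median change was -0.024, against 0.0081 for all genes. Leaving out 30U replicate 1 left 0 of the 3 calls in KYSE30, and leaving out any 1 of the other 3 KYSE30 arrays left 1. The difference between the changes passed for 3 of 9, all with the higher change in KYSE180, against 12.2% of all genes (6.94% higher and 5.21% lower). At an unadjusted p under 0.05 the numbers were 4 of 9 in KYSE180, where 19.2% of all genes reached it, 3 in KYSE30 (30.9% of all genes) and 4 for the difference (27.9% of all genes).

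Without 180D replicate 1, C3 remained the single member that passed in KYSE180. The change was then 0.34 ± 0.05 for NFKBIA (adjusted p = 0.0560) and 0.33 ± 0.12 for TNFAIP3 (adjusted p = 0.263). It was 0.063 for NFKB1, 0.037 for NFKB2, -0.082 for SOD2, 0.081 for LCN2 and 0.030 for ICAM1.

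Over both fractions, 4 of the 9 genes were higher in KYSE180 than in KYSE30 and 0 were lower, where 67.1% of all genes passed (36.1% higher and 31% lower). The median difference was 0.18, against 0.052 for all genes. NFKB1 was higher in KYSE180 by 0.60 ± 0.05, or 1.51-fold (adjusted p = 1.21e-05). SOD2 was higher by 0.72 ± 0.07, or 1.64-fold (adjusted p = 3.18e-05). TNFAIP3 was higher by 0.30 ± 0.07 (adjusted p = 0.00441), and by 0.44 ± 0.07 with its second probe set. Of the 9 squamous markers 7 were also higher in KYSE180 and 0 lower, and their part in these differences was not tested.

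LCN2 was higher by 0.28 ± 0.08 (adjusted p = 0.0157). Its means lay apart mainly in D, at 5.78 in 180D and 5.31 in 30D, and were closer in U, at 5.71 in 180U and 5.62 in 30U. Much of this difference is thus the low level in 30D described above. These 4 calls held in all 8 fits that left out 1 array, and without 180D replicate 1 the adjusted p of LCN2 was 0.0482. The other 5 did not pass: RELB differed by -0.30 ± 0.13 (adjusted p = 0.0669), C3 by -0.25 ± 0.12 (adjusted p = 0.106), NFKBIA by 0.18 ± 0.11 (adjusted p = 0.159), NFKB2 by 0.04 (adjusted p = 0.458) and ICAM1 by 0.05 (adjusted p = 0.584). RELB was lower in KYSE180 without 180U replicate 2 (-0.40 ± 0.12, adjusted p = 0.0217) and without 180D replicate 1 (-0.39 ± 0.13, adjusted p = 0.0308). The SE of C3 and of NFKBIA here also held the difference of their D minus U changes between the lines. With a random block for the parental population the SE of C3 was 0.09, and C3 passed as well, lower in KYSE180 (adjusted p = 0.0269). The correlation of -0.37 used by that block came from the additive fit, whose spread also holds D minus U changes that differ between the lines. Around the group means the paired arrays correlated at 0.0203 in KYSE180 and -0.0228 in KYSE30, so -0.37 does not measure likeness within populations.

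The rest of the pathway was described through 7 lists by role, with 125 distinct genes, of which 93 were tested. Of these 93, 4 rose and 2 fell in 180D (6.45%, median change 0.036), and 23 rose and 5 fell in 30D (30.1%, median change 0.091). The change differed between the lines for 21, higher in KYSE180 for 7 and lower for 14. No set test was made, so these shares are descriptions beside the shares of all genes given above.

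**Figure D3:**
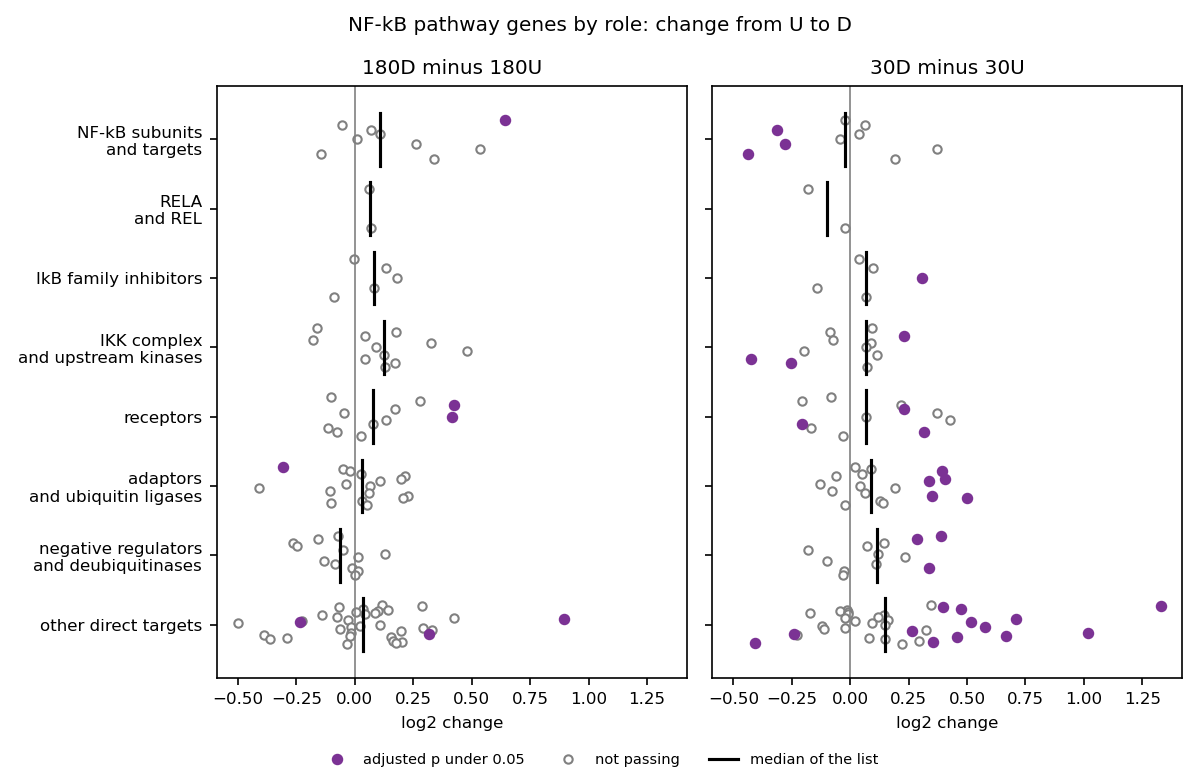
Change from U to D (horizontal axis, log2) of the 9 members and of the tested genes of each pathway list in KYSE180 (left) and KYSE30 (right). Filled points pass at an adjusted p under 0.05 and bars are list medians: the other direct targets hold 3 filled points in KYSE180 and 13 in KYSE30.

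Of the subunits outside the set, RELA encodes p65, the main activating subunit, and REL encodes c-Rel. RELA averaged 8.79 in 180D, 8.72 in 180U, 8.92 in 30D and 8.94 in 30U, and REL averaged 8.19 in 180D, 8.12 in 180U, 7.83 in 30D and 8.01 in 30U. Neither passed between D and U in either line, and a dimmer probe set of REL gave 0.70 ± 0.24 in KYSE30 (adjusted p over all probe sets = 0.160). The list of IkB family genes also held NKAP, which is no IkB protein. Of its 5 tested genes, 0 passed in KYSE180 and 1 in KYSE30: NFKBIE, which encodes IkB-epsilon, rose in 30D by 0.31 ± 0.07 (adjusted p = 0.0289).

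The IKK complex and its upstream kinases held 11 tested genes. None of the 11 passed in KYSE180. In KYSE30 TAB2 and TAB3, adaptors that bind ubiquitin chains and activate the kinase TAK1, fell by 0.42 ± 0.06 (adjusted p = 0.00573) and by 0.25 ± 0.06 (adjusted p = 0.0251). IKBKE, an IKK-related kinase, rose in 30D by 0.23 ± 0.06 (adjusted p = 0.0445).

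Of 11 receptor genes, 2 rose in 180D. IL1RAP, the co-receptor for interleukin-1, rose by 0.42 ± 0.08 (adjusted p = 0.0366) and TLR3, a sensor of double-stranded RNA, by 0.41 ± 0.06 (adjusted p = 0.0140). In 30D LTBR, the lymphotoxin-beta receptor, rose by 0.23 ± 0.06 (adjusted p = 0.0306) and TNFRSF12A, the receptor for TWEAK, by 0.32 ± 0.07 (adjusted p = 0.0279). TNFRSF10B, a receptor for TRAIL, fell in 30D by 0.21 ± 0.05 (adjusted p = 0.0343).

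Among 17 adaptors and ubiquitin ligases, 5 rose in 30D and 0 fell. MALT1, a protease and scaffold, rose by 0.41 ± 0.06 (adjusted p = 0.00414) and CARD10, a scaffold that binds BCL10 and MALT1, by 0.39 ± 0.06 (adjusted p = 0.00576). MYD88, the adaptor of Toll-like and interleukin-1 receptors, rose by 0.34 ± 0.06 (adjusted p = 0.00810), and TRAF3, which restrains the non-canonical pathway, by 0.35 ± 0.06 (adjusted p = 0.0101). The remaining gene of the 5 was TRAF5 (0.50 ± 0.12), named after its value was seen. In KYSE180 only BCL10 passed in this list, falling in 180D by 0.31 ± 0.05 (adjusted p = 0.0209). The list of 12 negative regulators also held TRAF3IP2, an adaptor that activates NF-kB. Of the 12, 3 rose in 30D: the deubiquitinase CYLD by 0.29 ± 0.06, the A20-binding protein TNIP1 by 0.34 ± 0.07 and COMMD1, which promotes degradation of RELA, by 0.39 ± 0.07. None of the 12 passed in KYSE180.

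The 35 other direct targets held 11 that rose and 2 that fell in 30D, and 2 that rose and 1 that fell in 180D. CXCL8, the neutrophil chemokine interleukin-8, was the gene that rose in both: by 0.90 ± 0.11 in 180D (means 7.16 in 180D and 6.26 in 180U, adjusted p = 0.00590) and by 0.71 ± 0.11 in 30D (means 5.50 in 30D and 4.79 in 30U, adjusted p = 0.00606). A second, dimmer probe set gave smaller rises, 0.58 ± 0.13 in KYSE180 and 0.26 ± 0.13 in KYSE30. Neither passed (adjusted p over all probe sets = 0.131 and 0.349). With the brighter probe set the changes of CXCL8 in the 2 lines differed by 0.19 ± 0.15 (adjusted p = 0.472). Without 180D replicate 1 the change in KYSE180 was 1.00 ± 0.12 (adjusted p = 0.0238), and without 180U replicate 2 the call was lost (0.85 ± 0.14, adjusted p = 0.0541).

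In 30D the other targets with the smallest p were the chemokine CCL5, which rose by 1.33 ± 0.08, the growth regulator MYC by 1.02 ± 0.06, the stress-induced IER3 by 0.52 ± 0.05 and the urokinase receptor PLAUR by 0.46 ± 0.05. The 2 that fell were NINJ1, a membrane protein of cell adhesion and lysis, by 0.24 ± 0.05 and the iron transporter SLC11A2 by 0.41 ± 0.06, both named after their values were seen. In KYSE180 NINJ1 rose by 0.32 ± 0.05 (adjusted p = 0.0256) and IER3 fell by 0.23 ± 0.05 (adjusted p = 0.0464), each opposite in sign to its change in KYSE30. The targets CCL20, IL6, TNF and PTGS2 lay below the filter and were not tested, and CXCL1 and IL1B did not pass between D and U in either line.

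By the naming rule 19 genes of these lists were called in 30D, and 8 of these calls held in all 8 fits that left out 1 array: TAB2, CARD10, MALT1, CXCL8, CCL5, IER3, PLAUR and MYC. The other 11 were lost in at least 1 of them, with adjusted p up to 0.228, each without 1 of the 4 KYSE30 arrays. The call of CARD10 was lost with the mean of its probe sets (0.18 ± 0.08, adjusted p = 0.155), and its second probe set gave -0.03 ± 0.13. The mean of probe sets also ended the calls of CYLD, LTBR, TAB3 and TNFRSF10B, and testing without a filter ended 6 of the 19. With the block IKBKE, LTBR, TNFRSF12A and TNFRSF10B did not pass, with adjusted p of 0.104, 0.0587, 0.0612 and 0.0797. In 180D 0 of the 6 named calls held in all 8 fits. Among these fits TLR3 was lost only without 180U replicate 2 (adjusted p = 0.0748), and without 180D replicate 1 its adjusted p was 0.0337. Leaving out 1 array ended the call of IER3 in 8 of the 8 fits, of BCL10 and NINJ1 in 7 and of IL1RAP in 6, so these losses were not tied to 1 array. Without 180D replicate 1 the adjusted p was 0.133 for IL1RAP, 0.0856 for BCL10, 0.0952 for NINJ1 and 0.118 for IER3. These 4 calls were also lost with the block, with adjusted p of 0.112 for IL1RAP, 0.0860 for BCL10, 0.0848 for NINJ1 and 0.132 for IER3. TLR3 was lost with the mean of its probe sets (adjusted p = 0.0911), with the most variable one (0.384) and in the 4 arrays of KYSE180 alone (0.0921). Other probe sets of CARD10, CYLD, LTBR, TAB3, TNFRSF10B and BCL10 gave the opposite sign in at least 1 comparison, and none of those passed.

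Between the lines 71 of the 93 pathway genes passed (76.3%), 23 higher and 48 lower in KYSE180, with a median difference of -0.21, against 0.052 for all genes. Of all genes 67.1% passed, 36.1% higher and 31% lower, and the counts by list below stand beside these shares without a set test. The 4 members that passed were all higher in KYSE180. REL was higher by 0.24 ± 0.06 (adjusted p = 0.00956), a call lost with its most variable probe set (0.08 ± 0.22, adjusted p = 0.761). RELA was lower, with a difference of -0.17 ± 0.06 (adjusted p = 0.0332). The RELA call was lost without 30U replicate 1, 30U replicate 2, 30D replicate 2, 180U replicate 1 or 180D replicate 2, with adjusted p up to 0.101. Of the 11 kinases and IKK genes 8 were lower in KYSE180 and 0 higher. They included IKBKB, the catalytic subunit IKK-beta, with a difference of -1.54 ± 0.08 (adjusted p = 4.12e-07), TAB3 with -1.44 ± 0.09 (adjusted p = 1.12e-06), MAP3K14, the kinase NIK, with -0.78 ± 0.08 (adjusted p = 3.04e-05) and IKBKE with -0.67 ± 0.06 (adjusted p = 9.69e-06).

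The IkB list split: NFKBIB was higher in KYSE180 by 0.61 ± 0.05 and the other 4 tested genes of that list were lower. Among these were NFKBIE (-0.42 ± 0.06), NFKBID (-0.42 ± 0.04) and NKAP (-0.32 ± 0.07), the last of which is no IkB gene. Of 11 receptors 2 were higher and 6 lower, with TLR3 at -1.74 ± 0.08 and TNFRSF12A at -1.25 ± 0.09. Of 17 adaptors 4 were higher, with TRAF5 at 1.41 ± 0.10, and 7 lower, with BCL10 at -1.90 ± 0.07. The list of negative regulators counted 4 higher, among them the deubiquitinase OTULIN at 0.83 ± 0.04 and CYLD at 0.62 ± 0.09, and 6 lower, with the adaptor TRAF3IP2 among these.

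**Figure D4:**
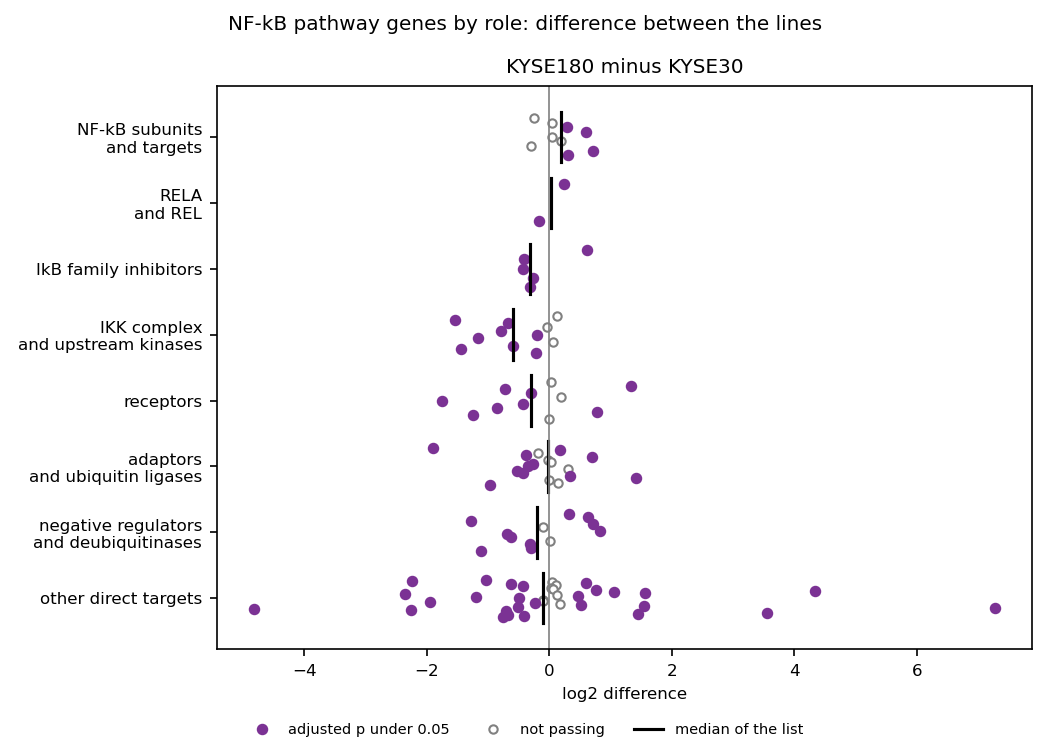
Difference between the lines over both fractions (horizontal axis, log2, KYSE180 minus KYSE30) of the 9 members and of the tested genes of each pathway list. Filled points pass at an adjusted p under 0.05 and bars are list medians: PI3 lies at 7.27 and PLAU at -4.82, while the 9 members lie between -0.30 and 0.72.

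The 35 other direct targets spanned a wider range than the 9 members, as a longer list tends to. PI3, which encodes the protease inhibitor elafin, was 154-fold higher in KYSE180 (7.27 ± 0.08), and CXCL8 2.95-fold higher (1.56 ± 0.08). CXCL1, a neutrophil chemokine whose mean in KYSE30 lay below the filter, was at least 19.4-fold higher in KYSE180 when measured from the filter value. PLAU, which encodes urokinase, was lower in KYSE180, with a difference of -4.82 ± 0.14 (adjusted p = 1.26e-08), and so was the stress gene GADD45B, with -2.36 ± 0.07 (adjusted p = 1.46e-08). IL1B, whose mean in KYSE180 lay below the filter, was at least 1.40-fold lower there when measured from the filter value (adjusted p = 0.00151). Each line is a single cell line, so these are differences between KYSE180 and KYSE30. The spread behind them is that of an additive fit of line and fraction, which also holds changes from U to D that differ between the lines. In that fit the D and U arrays of a parental population counted as separate.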

How the data were processed

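Biotin-labelled RNA of 8 sublines was hybridised to Affymetrix arrays of 54675 probe sets. The deposited log2 values were made by the authors with RMA, per the submitters' processing notes. No source used here gives its version. RMA corrects background and makes array distributions alike, so it hides changes in the amount of RNA per cell and compresses the fold changes of dim genes.

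Gene symbols came from the platform annotation, updated through a RefSeq gene table (GRCh38.p14). Of the probe sets 41091 had 1 symbol, 1801 several, 11721 were not listed and 62 were controls. Probe sets with 1 symbol and a mean at or above the 40th percentile, log2 4.46, were kept, and each gene took the one with the highest mean. Tests used limma 3.58.1 (lmFit and eBayes) in R 4.3.3. They were two-sided, with p-values adjusted by Benjamini and Hochberg over 14180 genes and a threshold of 0.05. The 4 group means gave the changes and their difference, and an additive fit of line and fraction gave the difference between the lines. The scripts were tested on simulated data.

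Groups come from the sample titles and the pairing of D and U sublines from the descriptions, in which 180U replicate 1 pairs with 180D replicate 2. Paired arrays deviated from their group means with a correlation of 0.0203 in KYSE180 and -0.0228 in KYSE30. Precision is limited by the number of arrays, and the p-values of the D minus U changes and of their difference rest on the spread between populations that were selected separately. Those of the difference between the lines rest on the additive fit, whose spread also holds changes that differ between the lines. The members and the gene lists were chosen with earlier results of these data known. All members are named, and from each list up to 4 genes with the smallest adjusted p that passed in a comparison, plus RELA, REL, CXCL8, CXCL1, CCL20, IL6, TNF, IL1B, PTGS2 and CYLD. Alternatives were other filters, other probe set rules, an intensity trend or robust prior, centring of arrays, leaving out each array, the parental population as a block, and the 4 arrays of a line alone. MicroRNA arrays that the labels mention were not used here.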

Additional observations from a re-analysis of the deposited data

Results flagged for a closer look

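Of the genes named here, 18 had a D minus U change that was not the same in KYSE180 and KYSE30 by a direct test of the difference (limma, adjusted p under 0.05). Most of the 15 outside the members were named for a small adjusted p in a comparison, this test included, so their number follows in part from the naming. By the same test 12.2% of all genes passed, 21 of the 93 pathway genes and 3 of the 9 members. Each value is the change in KYSE180 minus that in KYSE30. Among the members it was 0.67 for C3, 0.54 for NFKBIA and 0.38 for LCN2. NFKBIA had changes of opposite sign, 0.26 in KYSE180 and -0.28 in KYSE30.

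In the kinase list the difference was 0.47 for TAB2 and 0.42 for TAB3, and in the receptor list 0.35 for TLR3, 0.28 for TNFRSF10B and 0.49 for EDAR, the receptor of ectodysplasin. Among adaptors it was -0.41 for CARD10 and -0.33 for BCL10. The negative regulators gave -0.45 for CYLD, -0.41 for the ubiquitin ligase ITCH, -0.46 for COMMD1 and -0.32 for N4BP1. Among the targets it was -1.04 for CCL5, -0.75 for IER3, 0.56 for NINJ1 and -1.03 for MYC.

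Of these 15 genes outside the members, 4 passed in all 8 fits that left out 1 array: CCL5, IER3, NINJ1 and MYC. The other 11 lost the call in at least 1 of them, with adjusted p up to 0.166, and 9 of the 15 lost it with the parental populations as a block.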

How the results depend on the processing

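Precision is limited by 2 arrays a group, and dim probe sets near the filter understate fold changes. The rise of C3 in 180D, its difference between the lines, the difference of NFKBIA and the 4 differences of level between KYSE180 and KYSE30 kept direction and side of the threshold under all alternatives that tested them, the replicate block of parental populations included. For the 4 differences of level that block was random, and with its negative correlation of -0.37 their SE became smaller. Among all genes 10359 then passed between the lines, against 9518 without it, so it was no stricter check of these 4 calls. The falls of NFKBIA, SOD2 and LCN2 in 30D did not, in the fits given above, and the LCN2 difference passed in 3 of its 15 alternatives. LCN2 and ICAM1 were too dim for the filter at the 60th percentile. The causes of the changes below were not tested.

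Members passing in KYSE180 numbered 2 with a filter at the 60th percentile and with an intensity trend (NFKBIA added in both), and 2 with the replicate block (RELB added). Among all genes, 311 passed in KYSE180 with no filter, 1069 with the trend, 230 with the replicate block and 195 with the 4 arrays of that line alone. For the difference between the changes these numbers were 1142 with no filter, 2700 with the trend and 1011 with the replicate block. Over the fits that left out 1 array, the members passing in KYSE30 ran from 0 to 3. The genes passing ran from 209 to 502 in KYSE180, from 834 to 2553 in KYSE30 and from 727 to 1702 for the difference.

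Sign changes among members touched values that did not pass. NFKB2 with the mean of its probe sets gave -0.076 in KYSE180, -0.067 for the difference and -0.0021 between the lines. With its most variable probe set NFKB2 gave -0.16 in KYSE180, 0.022 in KYSE30, -0.18 for the difference and -0.049 between the lines, and with centred arrays -0.032 in KYSE180. ICAM1 with the mean of its probe sets gave -0.13 in KYSE30 and 0.13 for the difference, and with its most variable one 0.055 in KYSE180, -0.33 in KYSE30 and 0.39 for the difference. When 1 array was left out, NFKB2 ran from -0.020 to 0.037 in KYSE180, from -0.12 to 0.033 in KYSE30 and from -0.024 to 0.12 for the difference. ICAM1 ran from -0.18 to 0.062 in KYSE180, from -0.023 to 0.15 in KYSE30, from -0.24 to 7e-05 for the difference and from -0.0092 to 0.097 between the lines. RELB ran from -0.12 to 0.45 for the difference, and C3 from -0.063 to 0.015 in KYSE30.

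Outside the members, averaging all probe sets gave 0.00063 for BCL10 in KYSE180 and 0.15 for its difference between the lines, 0.0013 for the difference of CYLD and -0.045 for that of TNFRSF10B. The most variable probe set gave 0.30 for BCL10 in KYSE180, 0.78 for its difference and 0.012 for the difference of ITCH. None of these 7 values passed.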

Other observations

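For each member that passed between D and U, the genes with the most similar profile were sought over the 8 arrays, after the mean of its line was taken off each array. These are the highest of 14171 correlations over few points, and no test belongs to them. C3 was most like PLAT, the tissue plasminogen activator (Pearson r = 0.9995), which averaged 4.96 in 180D and 3.17 in 180U, and 6.90 in 30D and 6.99 in 30U. The 180U mean of PLAT lay below the filter value of 4.46, so the size of its change is uncertain. The next was TMEM45A (r = 0.9986), with a change of 1.10 ± 0.07 in KYSE180 and -0.02 ± 0.07 in KYSE30. As with C3, both were higher in 180D than in 180U and nearly level between 30D and 30U.

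NFKBIA was most like TTN (r = 0.992), with changes of 0.31 ± 0.08 in KYSE180 and -0.31 ± 0.08 in KYSE30, and the antisense gene BAZ2B-AS1 (r = 0.989), with 0.31 ± 0.06 in KYSE180 and -0.34 ± 0.06 in KYSE30. The 180U mean of TTN, 4.38, lay below the filter. SOD2 was most like KREMEN1 (r = 0.992), with -0.11 ± 0.07 in KYSE180 and -0.43 ± 0.07 in KYSE30, and TBL1X (r = 0.991). LCN2 was most like METTL22 (r = 0.987) and ARSJ (r = 0.985).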
